A study of Mus musculus with 2 samples.

Results

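The Polycomb repressive complex 2 (PRC2) genes were followed in mouse embryonic stem (ES) cells in which H2A.B was knocked down, against ES cells carrying a control RNA. H2A.B is a histone variant, a short relative of H2A. The genes were Ezh1, Ezh2, Eed, Suz12, Jarid2, Mtf2, Phf1, Phf19, Rbbp4 and Rbbp7, and a probe set was taken where the platform annotation gave it exactly one of these symbols. Of the 10 genes, 9 had a probe set, out of 17097 genes named by a single-gene probe set in the table, and Phf19 was named by 0 probe sets. The 9 genes had 23 probe sets. The knockdown value of 2 of them, one of Ezh1 and one of Suz12, belonged to a corrupted run of values and was left out, which left 21.

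The H2A.B KD cells had been infected with a retrovirus carrying a short-hairpin RNA (shRNA) against H2A.B. The Control KD cells had received the same kind of retrovirus with a control RNA sequence. In both, the RNA was expressed from a U6 promoter in a vector with a neomycin resistance gene, and both cultures were put under G418. The labels' protocols give 2 to 4 weeks of G418 for the H2A.B-depleted cells and no separate time for the controls. Both were mouse ES cells kept without feeder cells, on gelatin, in medium with serum and leukaemia inhibitory factor. The labels do not say whether either culture was a clone or a pool, and they call the H2A.B KD cells #1 without saying what that number stands for. Each group had 1 Affymetrix array. Without replicate arrays the differences carry no replicate error, and none was tested.

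PRC2 places methyl groups on a lysine of histone H3 (H3K27), a mark of silenced genes. Its core joins a methyltransferase, Ezh2 or Ezh1, to Eed, Suz12 and a histone-binding protein, Rbbp4 or Rbbp7. Further subunits define alternative forms of the complex: one form carries a Polycomb-like protein (Phf1, Mtf2 or Phf19), and the other carries Jarid2 with Aebp2. In ES cells PRC2 is known for its place at CpG-rich promoters of developmental regulators.

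The levels are log2 intensities from RMA, which the submitters' processing notes name. The genes of H2A.B itself, H2ab1 to H2ab3, were named by 0 probe sets, so these arrays give no check of the depletion. The ES cell markers, 12 measured of 14 listed, were bright on both arrays. They lay between 10.12 and 14.22 on the H2A.B KD array and between 10.14 and 14.24 on the Control KD array. All 12 were within 0.5 between arrays, as were 88.9% of all genes. The Oct4 gene Pou5f1 had 12.64 on the H2A.B KD array and 12.65 on the Control KD array. Feeder and fibroblast genes, 12 of 12 measured, also lay within 0.5 between arrays. Their differences, H2A.B KD minus Control KD, ranged from -0.090 to 0.34, with 10 above 0, against 47.3% of all genes. The 6 at or above the median brightness of genes, a mean of 6.73, all lay above 0, with a median of 0.15. Some were bright: Fn1 had 12.28 on the H2A.B KD array and 12.18 on the Control KD array. Vim had 10.89 on the H2A.B KD array and 10.55 on the Control KD array. Of 10 measured markers of differentiated lineages, 9 lay within 0.5. The exception, named after its value was seen, was the erythroid factor gene Gata1, on 1 probe set below the median brightness of genes. It had 6.86 in H2A.B KD cells and 5.77 in Control KD cells (1.09). The spread of the differences depended on the position in the deposited table. Among probe sets at or above the median brightness, a mean over both arrays of 6.17, the absolute difference had a median of 0.047 in the first section of rows. It was 0.16 in the middle section and 0.17 in the last. Gata1 lies in the middle section, where 6.88% of all usable probe sets differed by 2-fold. PRC2 probe sets numbered 13 in the first section and 4 in each of the others. What produced the wider sections was not tested.

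PRC2 transcripts had closely similar levels on the H2A.B KD and the Control KD array. The median difference over the 21 probe sets, H2A.B KD minus Control KD on the log2 scale, was 0.0033. The median absolute difference was 0.038, against 0.074 over all usable single-gene probe sets, so most of the array was also close. There were 12 above 0 and 9 below, against 46.2% of all usable single-gene probe sets above 0. Of the 21, 0 differed by 2-fold. Over all 27614 usable single-gene probe sets 4.19% did (1.12% higher and 3.07% lower on the H2A.B KD array), and 2.36% of those at or above the median brightness. A count of 0 among 21 is near that background. At a 1.5-fold rule the count was 0, where 9.1% of all usable probe sets passed. At a 1.2-fold rule it was 1, that of Eed, where 21.7% of all passed. By each gene's brightest probe set, Phf1 (-0.0020), Suz12 (0.013) and Mtf2 (-0.020) lay closest to 0, and Eed (-0.33) lay furthest from it.

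**Figure D1:**
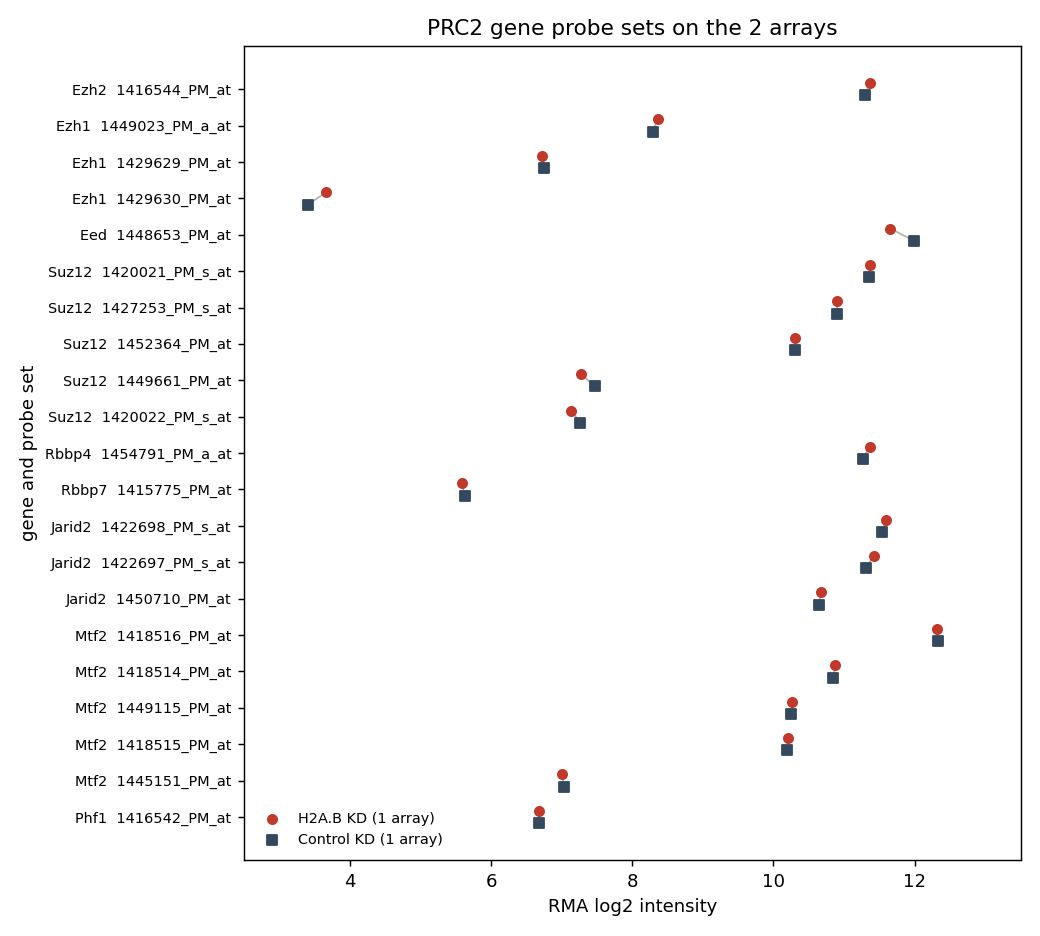
RMA log2 intensity (x axis) of each usable PRC2 gene probe set (y axis) on the H2A.B KD array (circles) and the Control KD array (squares), 1 array per group. The paired points nearly coincide for most probe sets, and the widest gaps are those of Eed (11.66 in H2A.B KD, 11.99 in Control KD) and of the dimmest Ezh1 probe set (3.67 in H2A.B KD, 3.40 in Control KD).

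Ezh2 (chromosome 6), the methyltransferase that predominates in dividing cells, was read by the probe set 1416544_PM_at. It had a log2 intensity of 11.36 on the H2A.B KD array and 11.30 on the Control KD array, a difference of 0.062 or 1.04-fold. Of the first section's probe sets at or above the median brightness, 38.8% differed by at least as much. Ezh1 (chromosome 11), its paralog with the weaker catalytic activity, had 3 usable probe sets. The brightest, 1449023_PM_a_at, had 8.36 in H2A.B KD cells and 8.29 in Control KD cells (0.068). The probe set 1429629_PM_at had 6.72 in H2A.B KD cells and 6.75 in Control KD cells (-0.022). The dimmest, 1429630_PM_at, has the same target accession as the last and had 3.67 in H2A.B KD cells and 3.40 in Control KD cells (0.26). The 3 Ezh1 probe sets thus did not share a direction, and their mean difference was 0.10 ± 0.14 (SD over 3 probe sets of the same 2 arrays, which is no replicate error). The probe set left out had 5.80 on the Control KD array.

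Eed (chromosome 7) encodes the subunit that binds methylated H3K27 and stimulates the enzyme. On its one probe set, 1448653_PM_at, it had a log2 intensity of 11.66 in H2A.B KD cells and 11.99 in Control KD cells, a difference of -0.33, or 1.26-fold lower in H2A.B KD cells. It was the lowest of the 21 differences. The probe set lies in the middle section of the table, where 25.6% of the 3098 probe sets at or above the median brightness differed by at least that much in either direction. No second probe set was there to repeat the reading.

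Suz12 (chromosome 11), the subunit that holds the complex together, had 5 usable probe sets. The 3 with a mean above 10 were 11.37, 10.90 and 10.31 in H2A.B KD cells against 11.35, 10.90 and 10.30 in Control KD cells, and the largest absolute difference among them was 0.013. The remaining pair, less bright but above the median brightness, lay lower in H2A.B KD cells on each, with 7.13 in H2A.B KD cells and 7.26 in Control KD cells (-0.13) on one and 7.28 in H2A.B KD cells and 7.47 in Control KD cells (-0.19) on the other. That pair thus lay further from 0 than the brighter 3, and the mean difference over all of them was -0.062 ± 0.093 (SD over 5 probe sets). The probe set left out had 8.57 on the Control KD array and shares its target sequence, by accession, with 2 of the others.

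The annotated start regions of Eed and Suz12 are shown because Eed had the largest difference and because both are core subunits needed for the methyltransferase to work, with unlike CpG content before their starts. Each is the 250 bases before the start, read from RefSeq (GRCm38.p6) on the gene's own strand, 5′ to 3′, with CpG dinucleotides in capitals.
Eed, chr7:89980977-89981226, minus strand: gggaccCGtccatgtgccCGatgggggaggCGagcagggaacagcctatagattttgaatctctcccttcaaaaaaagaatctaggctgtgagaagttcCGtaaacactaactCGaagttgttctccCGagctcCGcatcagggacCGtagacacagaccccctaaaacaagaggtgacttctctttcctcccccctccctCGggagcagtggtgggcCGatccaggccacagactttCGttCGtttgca
Suz12, chr11:79992856-79993105, plus strand: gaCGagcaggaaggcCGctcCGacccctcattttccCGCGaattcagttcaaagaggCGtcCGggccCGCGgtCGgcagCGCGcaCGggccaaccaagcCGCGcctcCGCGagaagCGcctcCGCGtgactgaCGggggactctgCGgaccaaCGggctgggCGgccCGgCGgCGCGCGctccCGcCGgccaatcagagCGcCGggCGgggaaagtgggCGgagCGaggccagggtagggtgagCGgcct
The Eed stretch holds 12 CpG dinucleotides and the Suz12 stretch 37. All 10 genes matched the RefSeq promoter table, with 12 entries. Their median was 23 CpG per 250 bases, against a median of 6 over all 32851 entries of that length. Of the 12 entries 9 exceeded 16, the 75th percentile of all entries. The exceptions were Eed, Ezh1 (14) and a second start of Mtf2 (2). The GC box GGGCGG, searched on both strands, was found in 8 of the 12 entries of these genes, against 32.7% of all entries. By gene, it was found before at least 1 start of 7 of the 10. It was not found in the Eed, Ezh1 or Ezh2 stretch. These are counts of letters in a fixed window and were not compared with the expression differences.

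Rbbp4 and Rbbp7, the histone-binding proteins, are shared with other chromatin complexes. Rbbp4 (chromosome 4) had 11.36 in H2A.B KD cells and 11.26 in Control KD cells on 1454791_PM_a_at, a difference of 0.10 or 1.07-fold. It lies in the last section, where 64.8% of probe sets at or above the median brightness differed by at least as much. Rbbp7 (chromosome X) had 5.58 in H2A.B KD cells and 5.62 in Control KD cells on 1415775_PM_at (-0.042), a probe set below the median brightness.

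Jarid2 (chromosome 13), the DNA-binding cofactor that helps bring PRC2 to its sites, lay slightly above 0 on each of its 3 probe sets. The levels were 11.59, 11.42 and 10.67 in H2A.B KD cells against 11.54, 11.31 and 10.65 in Control KD cells. The differences were 0.052, 0.11 and 0.019, with a mean of 0.060 ± 0.047 (SD over 3 probe sets). Of the first section's probe sets at or above the median brightness, 19.9% differed by at least as much as the largest of these. All 3 were designed to the same RefSeq transcript, so they are repeat readings of the gene and not independent samples.

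The Polycomb-like proteins bind CpG-rich DNA and histone H3 methylated at H3K36. Mtf2 (chromosome 5), the best studied of them in ES cells, had the narrowest spread of all members with several probe sets. Its 4 probe sets with a mean above 10 had 12.31, 10.88, 10.26 and 10.21 in H2A.B KD cells against 12.33, 10.85, 10.26 and 10.19 in Control KD cells, differing by at most 0.028. The fifth, 1445151_PM_at, had 7.00 in H2A.B KD cells and 7.04 in Control KD cells (-0.038). Over its 5 probe sets, from the first and the middle section, the mean difference was -0.0019 ± 0.027 (SD). Phf1 (chromosome 17) had 6.67 in H2A.B KD cells and 6.68 in Control KD cells on 1416542_PM_at, a difference of -0.0020. Phf19 was not measured.

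**Figure D2:**
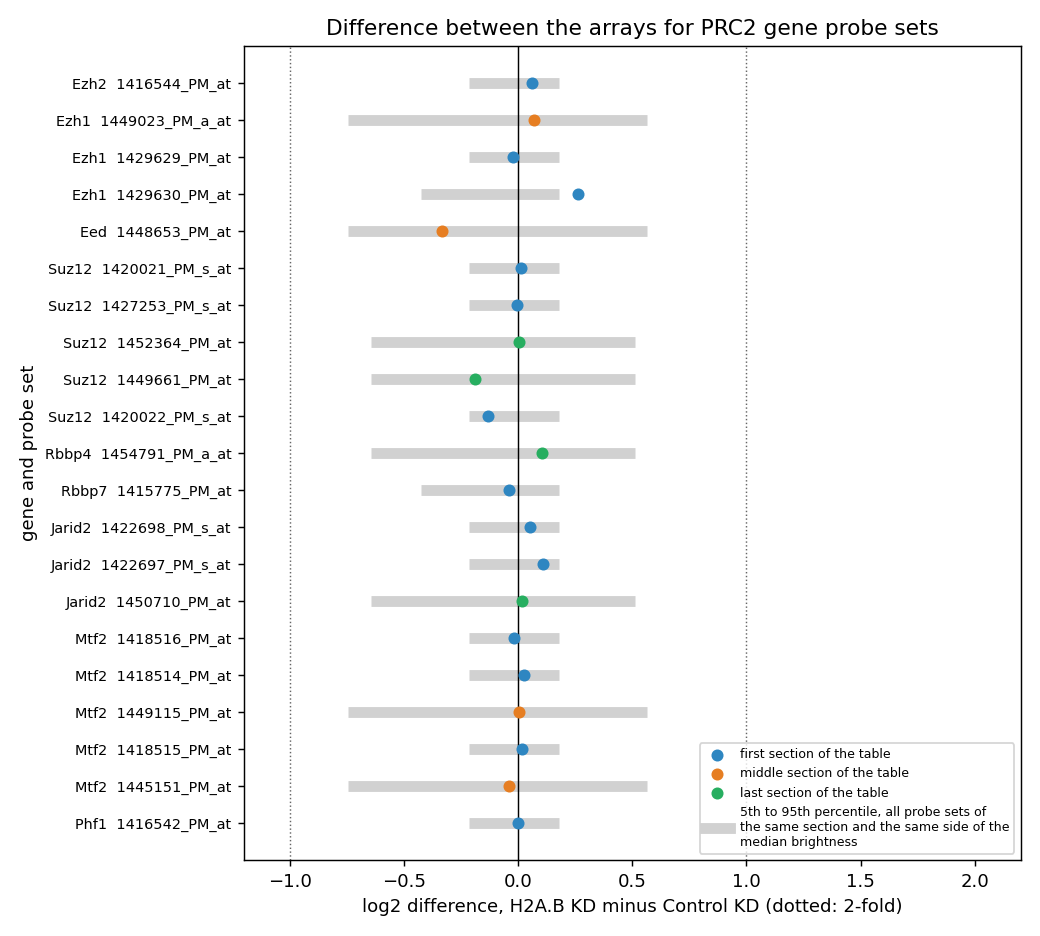
Log2 difference, H2A.B KD minus Control KD (x axis), of each usable PRC2 gene probe set (y axis), coloured by its section of the deposited table. Grey bars run from the 5th to the 95th percentile of all usable probe sets of the same section and on the same side of the median brightness, and dotted lines mark 2-fold. Of the 21 points, 1 (the dimmest Ezh1 probe set) lies above its bar and 0 lie below.

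Taken by size, 18 of the 21 probe sets (85.7%) differed by less than 0.15, against 66.9% of all usable probe sets and 68.6% of those at or above the median brightness. The 3 past that size were Eed, the dimmest Ezh1 probe set and a Suz12 probe set with a mean below 10. The 21 include repeat readings of the same genes and are not independent. With each gene read by its brightest probe set, the 9 PRC2 genes had a median absolute difference of 0.052. Over all genes it was 0.073, a smaller contrast. Because 13 of the 21 stood in the narrow first section, the sections were also read one by one. In the first section the PRC2 probe sets, 2 of them below the median brightness, had a median absolute difference of 0.028. That section had 0.045 over all usable probe sets and 0.047 over those at or above the median brightness. The 4 PRC2 probe sets of the middle section had 0.053, against 0.16 for all those at or above the median brightness. The 4 of the last had 0.061, against 0.17. These are descriptions of 2 arrays. Within genes the readings of the 4 members with several usable probe sets had SDs from 0.027 to 0.14, and the median such SD over 6826 genes was 0.065. Of the members' brightest probe sets, those of Eed, Rbbp4 and Ezh1 differed by more than that.

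The genes around PRC2 were read the same way, each by its brightest usable probe set. Over all 16563 genes the median difference was -0.0056, and 4.04% differed by 2-fold. The probe sets come from sections of unlike spread, so sizes from different sections are not on one scale. Among other PRC2 partners, 4 of 5 were measured, 0 differed by 2-fold and their median was -0.12. That median was -0.047 with the median over each gene's probe sets and -0.19 over the 3 brighter genes. Epop, a cofactor of the Polycomb-like form in ES cells, had 10.27 in H2A.B KD cells and 9.96 in Control KD cells (0.32). Aebp2, the partner of Jarid2, had 9.77 in H2A.B KD cells and 9.96 in Control KD cells (-0.19), and its 4 other probe sets differed by 0.0090, -0.24, -0.14 and -0.13. Epop and Aebp2 thus pointed opposite ways. Epop lies in the first section, above the 95th percentile (0.18) of that section's probe sets at or above the median brightness. The brightest Aebp2 probe set lies in the middle section, where the 5th percentile of such probe sets was -0.74. Lcor, a gene of the PALI family of PRC2 cofactors, had 5.60 in H2A.B KD cells and 5.65 in Control KD cells (-0.046), and its 2 dimmer probe sets differed by -0.50 and -0.013. The related Lcorl had 6.60 in H2A.B KD cells and 7.43 in Control KD cells (-0.83), but its 4 dimmer probe sets lay between -0.14 and 0.039. Its brightest probe set lies in the last section, where the 5th percentile at or above the median brightness was -0.65.

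H3K27 demethylases remove the mark that PRC2 places. Of the 3 genes listed, Kdm6a and its relatives, 2 were measured, with a median of -0.16. Of these 0 differed by 2-fold, against 4.04% of all genes. Uty was listed as a homolog of Kdm6a, and the activity of its product was not examined. The X-linked Kdm6a had 11.05 in H2A.B KD cells and 11.30 in Control KD cells (-0.25), with -0.14 and 0.16 on its other probe sets. Its Y-linked homolog Uty had 7.50 in H2A.B KD cells and 7.59 in Control KD cells (-0.084). Both lay lower in H2A.B KD cells on these brightest probe sets. They lie in the first section, where the 5th percentile of probe sets at or above the median brightness was -0.22. Kdm6a lay below that value and Uty did not. Eed (-0.33) lies in the wider middle section, so its size is not directly comparable.

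Polycomb repressive complex 1 (PRC1), which acts beside PRC2, had 19 of 22 listed genes measured. Of these 14 lay above 0 and 5 below, with a median of 0.038, against 47.3% of all genes above 0. The larger differences among its brighter genes were those of Pcgf2 (0.27), Kdm2b (0.19), Phc1 (0.16) and Scmh1 (0.11). Kdm2b lies in the last section, where the 95th percentile at or above the median brightness was 0.51. The others lie in the first, where it was 0.18. Only Phc3, a dim gene named after its value was seen, differed by 2-fold, against 4.04% of all genes. It had 5.34 in H2A.B KD cells and 6.40 in Control KD cells (-1.06).

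Other complexes that contain Rbbp4 or Rbbp7 (NuRD, Sin3, the chromatin assembly factor and the Hat1 acetyltransferase) had 14 of 15 genes measured. None differed by 2-fold, against 4.04% of all genes, and the median was -0.026. There were 6 above 0 and 8 below, against 47.3% of all genes above 0. With the median over each gene's probe sets 1 gene, Sin3a, passed 2-fold (-1.01). That value is the midpoint of its 2 probe sets, the brightest at -0.039 and the other at -1.97. Mta3 differed by -0.19, Gatad2a by 0.17, Gatad2b by -0.17 and Mta1 by 0.13. The other probe sets of Mta3 (0.19), Gatad2b (0.28) and Mta1 (-0.057), each dim, had the opposite sign.

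Developmental genes known to be bound by Polycomb complexes in ES cells had 34 of 40 members measured, but only 4 of them reached the median brightness of genes, a mean of 6.73. None of the 34 differed by 2-fold, against 4.04% of all genes, and a count of 0 among 34 is near that share. Of the 34, 32 lay within 0.5, as did 88.9% of all genes. Of the 34, 15 lay above 0 and 19 below, against 47.3% of all genes above 0, and the median was -0.012. Over the 4 brighter genes alone it was 0.086. Hoxa7 had 7.83 in H2A.B KD cells and 7.05 in Control KD cells (0.79) on its only usable probe set. That probe set lies in the last section, where the 95th percentile of probe sets at or above the median brightness of probe sets was 0.51. Pax6 had 8.88 in H2A.B KD cells and 9.66 in Control KD cells (-0.78). It lies in the first section, where the 5th percentile of such probe sets was -0.22. Its 3 dimmer probe sets, from the middle and last sections, lay between -0.027 and 0.027. On the brightest of these the arrays had the identical value 5.33, a match within a row that the search for repeats did not cover. Neurog1 differed by 0.28 and Eomes by -0.11, both in the middle section, where the 5th and 95th percentiles were -0.74 and 0.57. Signal over background was not analysed, so whether the 30 dimmer genes were transcribed is not known from these values.

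**Figure D3:**
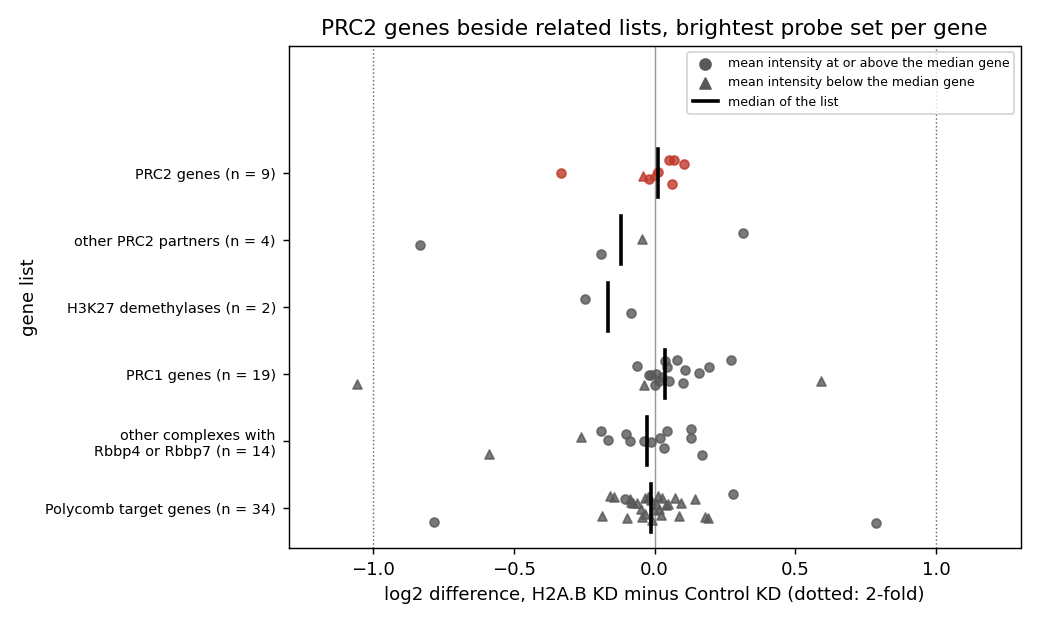
Log2 difference, H2A.B KD minus Control KD (x axis), of every measured gene of the PRC2 set and of 5 related lists (y axis), each gene by its brightest usable probe set. Red marks the PRC2 genes, black bars are list medians, triangles are genes below the median brightness and dotted lines mark 2-fold, which only Phc3 among the PRC1 genes passed (-1.06).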

How the data were processed

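Total RNA (2 µg) of 1 H2A.B KD and 1 Control KD culture was hybridised to Affymetrix arrays. The submitters' processing notes name RMA for the deposited values, and the authors' deposited control column was read as log2 intensities from its range of 0.80 to 14.51. In the deposited knockdown column 616 values that rise by 1 per step between rows 2054 and 4710, and 2 others above 20, were left out. So were 1455 control values equal to a value up to 20 rows above, which lay between rows 18185 and 33642 and included 0 PRC2 probe sets. Those row limits divide the table into its first, middle and last section. Left were 27614 usable probe sets naming 1 gene.

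Differences are H2A.B KD minus Control KD, with no centring and no test, since with 1 array per group the precision is unknown. The rule of size was 2-fold. Other genes named are up to 4 per list with the largest absolute difference among genes at or above the median brightness, and every measured member of the smaller lists. Members and lists were chosen with earlier results of these data known. Alternatives were repeats kept, probe sets without a suffix, a brightness filter, median or lowess centring, sections alone, 1.5-fold and 1.2-fold rules and medians per gene, and, added afterwards, leaving out Eed. The procedure was tested on simulated data. Python 3.11.15, pandas 2.3.3 and statsmodels 0.14.6 were used.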

Additional observations from a re-analysis of the deposited data

How the results depend on the processing

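The median difference of the PRC2 probe sets ranged from -0.017 to 0.013 over 9 alternatives, each closer to the main 0.0033 than 0.065, the median SD among probe sets of one gene, which served as the yardstick for a shift. The count of PRC2 probe sets 2-fold apart was 0 in each of the brightness, suffix, centring and repeat settings. Most of these settings could not raise it. No PRC2 value was a repeat, so keeping repeats left every PRC2 value as it was. The suffix and brightness settings only left probe sets out. Median centring took the same small value, -0.0077, from each difference. With the 1.5-fold rule the count was also 0, where 9.1% of all usable probe sets passed. With the 1.2-fold rule it was 1, Eed, where 21.7% of all passed. Of 52 single-gene values under alternatives 1 moved by more than the yardstick: Ezh1 was at -0.022 without suffixed probe sets. The 52 include values that could not move, those with repeats kept and those of genes whose probe set a setting left unchanged. With genes at or above the median brightness alone, the other PRC2 partners had a median of -0.19 (3 genes), the Polycomb targets one of 0.086 (4 genes) and PRC1 a 2-fold count of 0, fewer genes being read. With the median over probe sets of a gene the other PRC2 partners had a median of -0.047. The 2-fold count of other complexes with Rbbp4 or Rbbp7 was then 1 (Sin3a, at -0.039 on its brightest probe set and -1.97 on its other). No paired analysis was possible because each group had 1 array, and for the same reason no replicate could be left out.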
